A study of Arabidopsis thaliana with 6 samples.

Results

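The response to phosphate starvation was followed through 10 genes across 6 RNA-seq libraries from Arabidopsis seedlings. They were chosen by locus, as widely used reporters and effectors of this response, and all 10 were present among the 32548 genes of the table. Each had a mean of at least 1 adjusted count in at least 1 genotype and so entered the test with 23685 genes in all. The libraries came from 20-day-old plants grown on MS (Murashige and Skoog) plates and soil under long days, and no phosphate treatment was described. The 3 genotypes had 2 libraries each, namely the wild type Col-0, the T-DNA insertion mutant hda19-/-, and hdip1-/-,hdip2-/-,hdip3-/-, a CRISPR-Cas9 triple mutant called hdip1/2/3 hereafter. HDA19 is a histone deacetylase of the RPD3 type, and HDIP1, HDIP2 and HDIP3 are proteins that interact with it. The comparisons ask how the loss of the enzyme, or of its partners, changed transcript levels.

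Plants short of inorganic phosphate take up more of it, recycle it from internal molecules and replace phospholipids by lipids without phosphorus. The transcription factor PHR1 binds a short element called P1BS in the promoters of many such genes, and SPX proteins hold PHR1 back when phosphate is plentiful. The microRNA miR399 lowers the mRNA of PHO2, a ubiquitin-conjugating enzyme that limits phosphate transporters. IPS1 and AT4 are mostly noncoding RNAs that bind miR399 without being cut and so shield PHO2, which is called target mimicry.

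The sequences behind the miR399 module are shown because 3 of the 10 genes (PHO2, IPS1 and AT4) are linked through them. The mature forms of the 6 family members came from the RefSeq annotation of TAIR10.1, and the capitals mark the seed, bases 2 to 8. All 6 shared 1 seed, and miR399b and miR399c-3p were identical.
miR399a: uGCCAAAGgagauuugcccug
miR399b: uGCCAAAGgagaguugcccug
miR399d: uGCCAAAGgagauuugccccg
miR399e: uGCCAAAGgagauuugccucg
miR399f: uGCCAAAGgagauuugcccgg

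The mimic sites of AT4 (chr5:895149-895172, plus strand) and IPS1 (chr3:3051224-3051247, plus strand) each hold 3 extra bases, in capitals, opposite the step between positions 10 and 11 of the microRNA. Apart from these, 3 positions in each site were not Watson-Crick pairs with miR399b, of which 2 were G-U wobbles, and none lay opposite the seed. RefSeq annotates both stretches as coding sequence of short open reading frames.
AT4: uugggcaacuuCGAuccuuuggca
IPS1: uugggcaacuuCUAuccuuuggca

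PHO2 carries 5 sites for the same microRNA in its 5′ UTR, and none of them holds extra bases. Those at chr2:14282106-14282126 and chr2:14281884-14281904 (both on the minus strand) are printed. Here the capitals mark the bases opposite the seed, all of which pair with it. Upstream and downstream name the printed sites relative to each other only, since further sites follow at transcript positions 959 and 1016.
PHO2, upstream site: uagggcaaaucuuCUUUGGCa
PHO2, downstream site: uugggcaaaucucCUUUGGCa

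The P1BS element, GNATATNC, reads the same on both strands. It was found within 1000 nt upstream of 7 of the 10 genes (SPX1, SPX3, IPS1, AT4, PHT1;1, PHO2 and SQD2), and within that distance of 20.1% of 32547 genes. Within 300 nt it was found upstream of 2 genes, SPX3 and AT4, against 6.44% of all genes. The stretches around the elements nearest to the annotated starts of AT4, SPX3 and SQD2 are shown, since these are genes whose levels are described most closely below. They lie at chr5:894535-894581 (plus strand), 26 bases before the start of AT4, at chr2:18606299-18606348 (plus strand), 90 bases before that of SPX3, and at chr5:90429-90478 (minus strand), 340 bases before that of SQD2, and the capitals mark the element.
AT4: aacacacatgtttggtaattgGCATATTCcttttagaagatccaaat
SPX3: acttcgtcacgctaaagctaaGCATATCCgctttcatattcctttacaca
SQD2: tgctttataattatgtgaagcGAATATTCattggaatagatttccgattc

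Between 43906641 and 48407739 reads on genes stood behind each library, as recovered from the deposited values. HDA19 transcripts stood at 4298 and 4416 adjusted counts in wild-type libraries, 2832 and 4561 in those of hda19, and 4893 and 5206 in those of hdip1/2/3. For HDIP1, HDIP2 and HDIP3 the triple mutant gave log2 fold changes of 0.25, 0.37 and 0.08, none of them downward. Neither kind of mutation has to change the amount of RNA, and the labels could not be checked from these values. The labels call the tissue seedlings, yet 11 of 13 root marker genes had a mean below 10, and the root hair genes EXPA7 and EXPA18 were at 0 in every library. The summed root markers, nearly all of them PYK10, ranged from 3781 to 3952 in the wild type and from 6278 to 9058 in the mutants. PYK10 itself stood at 3494 and 3539 adjusted counts in wild-type libraries, 6828 and 8835 in those of hda19, and 6636 and 5813 in those of hdip1/2/3. The list moved both ways, since 4 of the 13 genes were above and 4 below the wild type in both hda19 libraries, and 2 were above and 1 below in hdip1/2/3. Both libraries lay below for 24.1% of all tested genes in hda19 and 31.3% in hdip1/2/3, and the shares above are not given here. PIP2;4, the next most abundant, went from 252.5 and 404.5 to 215.9 and 183.9 in hda19 and to 309.8 and 428.8 in hdip1/2/3. The part of these differences in the results below was not tested. The 6 green leaf markers summed to between 1648000 and 2475000, far above the root markers, whereas much of the phosphate starvation response is known from roots. In such bulk samples, fewer cells of a type and less RNA per cell cannot be told apart.

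Adjusted counts per kb of exon ordered the genes by level. PHO2 (mean of 1518 per kb over the 6 libraries) and SQD2 (1376) were highest, and their libraries overlapped. PAP17 followed with 781.5 per kb and SPX1 with 343.3, each clear of its upper neighbour. AT4 had 195.3 per kb and PHT1;4 had 96.69, and each overlapped the gene above it. MGD3, SPX3, IPS1 and PHT1;1 were low, at 16.03, 12.51, 11.07 and 4.185 per kb, with overlapping libraries. SPX3, IPS1 and PHT1;1 rested on at most 24 reads in a library.

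**Figure D1:**
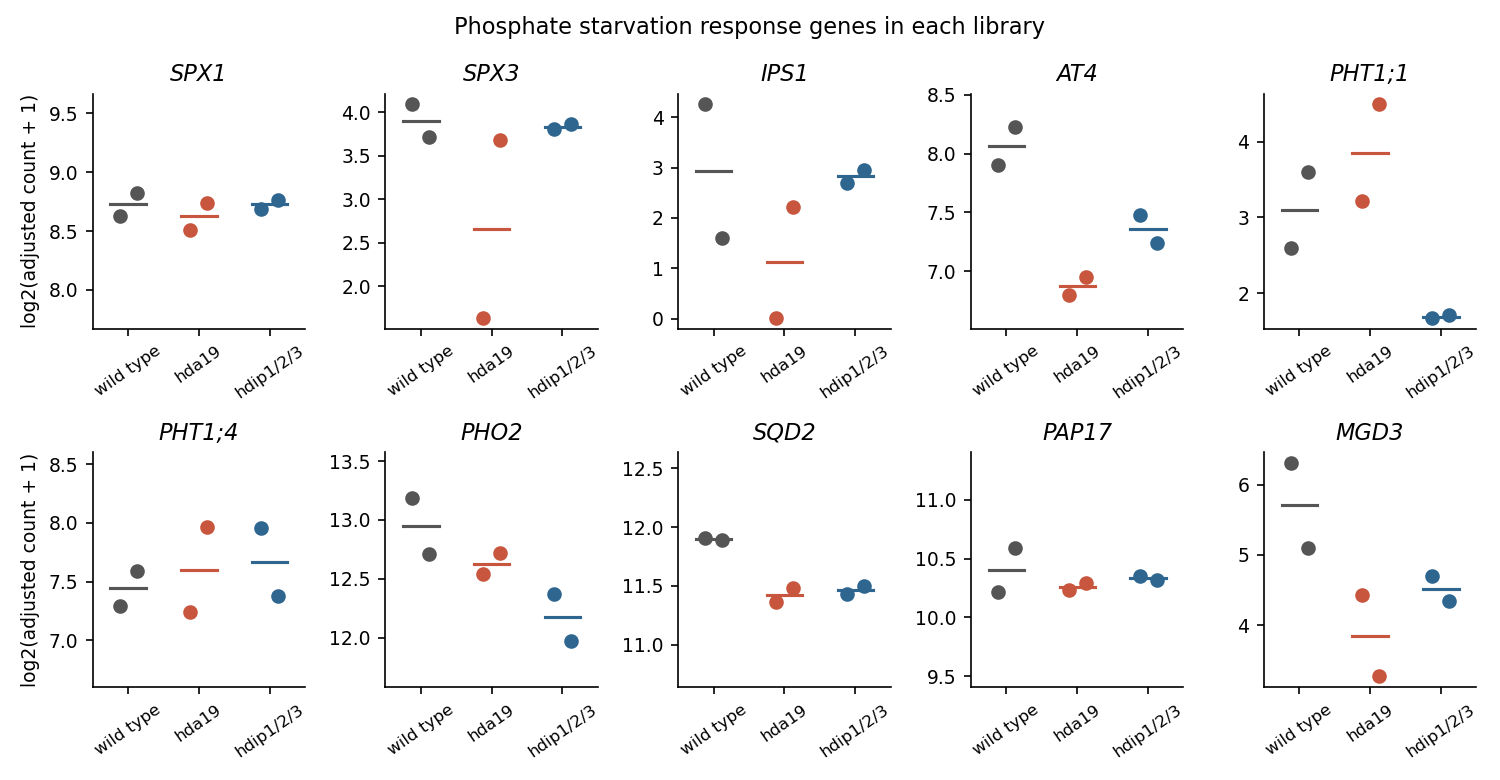
Levels of the 10 genes in each library, as log2 of the adjusted count plus 1, with points for the 2 libraries of a genotype and a line at their mean; each panel has its own axis, which spans at least 2 log2 units. In AT4, SQD2 and MGD3 every mutant library lies below the wild type, while the SPX1 libraries stay within 1.24-fold of each other.

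SPX1 and SPX3 encode SPX domain proteins that sense phosphate status through inositol pyrophosphates and restrain PHR1. SPX1 (AT5G20150) stood at 395.4 and 453.1 adjusted counts in wild-type libraries, 364.1 and 426.2 in those of hda19, and 410.5 and 434.8 in those of hdip1/2/3. All 3 genotypes overlapped, and the log2 fold changes were -0.10 (95% interval -0.51 to 0.30) in hda19 and -0.00 (-0.40 to 0.40) in hdip1/2/3. SPX1 is among the genes most often used as a reporter of low phosphate, and here the highest library was 1.24-fold above the lowest. SPX3 (AT2G45130) stood at 16.09 and 12.15 adjusted counts in wild-type libraries, 2.107 and 11.80 in those of hda19, and 13.05 and 13.55 in those of hdip1/2/3. Both hda19 libraries were below both wild-type libraries, but 1 of them by a small margin, and the log2 fold change of -1.25 (SE 0.71) had an unadjusted P value of 0.117 by limma-trend. Without hda19 replicate 2 it was -2.27 with a P value of 0.005, so the reading of SPX3 hangs on the 2 and 13 reads of these libraries.

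As a description over 6 libraries, the genes with the profile most like that of SPX1 among 19548 genes were AT1G13130, AT5G53730 and AT5G02140, with Pearson correlations of 0.99, 0.98 and 0.97. Since SPX1 itself moved so little, likeness to it follows small differences between libraries.

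The mimic RNAs came next. AT4 (AT5G03545, chromosome 5) stood at 238.4 and 298.3 adjusted counts in wild-type libraries, 110.1 and 122.8 in those of hda19, and 176.9 and 150.4 in those of hdip1/2/3. The 3 genotypes did not overlap, with the wild type highest and hda19 lowest. AT4 fell in hda19 to 43.8% of the wild-type level (log2 fold change -1.19, SE 0.24, unadjusted P = 0.00112, adjusted P = 0.0443 by limma-trend). It was the one gene of the 10 below an adjusted P value of 0.05 in any comparison. Leaving out any single library kept its log2 fold change between -1.35 and -1.03 with an unadjusted P value of at most 0.0171. Yet no gene of the 23685, AT4 included, had an adjusted P value under 0.05 in those fits. In hdip1/2/3 its level was 61.3% of the wild type, a log2 fold change of -0.71 (SE 0.24, unadjusted P = 0.0181, adjusted P = 0.0966), inside the fold limit. The direct difference between the mutants, -0.49 (SE 0.24), had an unadjusted P value of 0.0751. It was -0.16 (unadjusted P = 0.513) once the trend on transcript length described below was removed, so the order of the mutants is not settled.

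IPS1 (AT3G09922), the other mimic, was near the detection limit. The wild-type libraries held 18 and 2 recovered reads, those of hda19 held 0 and 4, and those of hdip1/2/3 held 5 and 6. The wild-type libraries lay so far apart that they enclosed both hdip1/2/3 libraries and overlapped hda19. The log2 fold changes were -1.81 (SE 1.04) in hda19 and -0.11 (SE 1.04) in hdip1/2/3, and the latter became 1.21 without wild type replicate 1. No difference in IPS1 was detectable at this depth.

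PHO2 (AT2G33770, chromosome 2), the target of miR399, stood at 9319 and 6706 adjusted counts in wild-type libraries, 5948 and 6750 in those of hda19, and 5304 and 4012 in those of hdip1/2/3. The hda19 libraries reached into the wild-type range, whereas both hdip1/2/3 libraries lay below all others. In hdip1/2/3 the level was 58.4% of the wild type (log2 fold change -0.78, SE 0.20, unadjusted P = 0.00451, adjusted P = 0.0544), and in hda19 it was 80.2% (-0.32, SE 0.20, unadjusted P = 0.144). The PHO2 transcript is long, at 4176 nt of exon, and long transcripts as a class were lower in hdip1/2/3. Over all tested genes the median log2 fold change in hdip1/2/3 ran from 0.32 for transcripts of 29 to 1000 nt to -0.41 for those of 2472 to 16614 nt, against 0.00 and -0.02 in hda19. With this trend removed, PHO2 in hdip1/2/3 was at -0.17 (unadjusted P = 0.0994), that in hda19 was at -0.30 (unadjusted P = 0.00975) and the direct difference between hda19 and hdip1/2/3 turned from 0.46 to -0.13. Which mutant had the lower P value for PHO2 thus depended on the removal, and neither value then reached the fold limit. The removal worked the other way for the short AT4 transcript (936 nt), which then passed the call rule in hdip1/2/3 at -1.02 (unadjusted P = 0.00159).

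**Figure D2:**
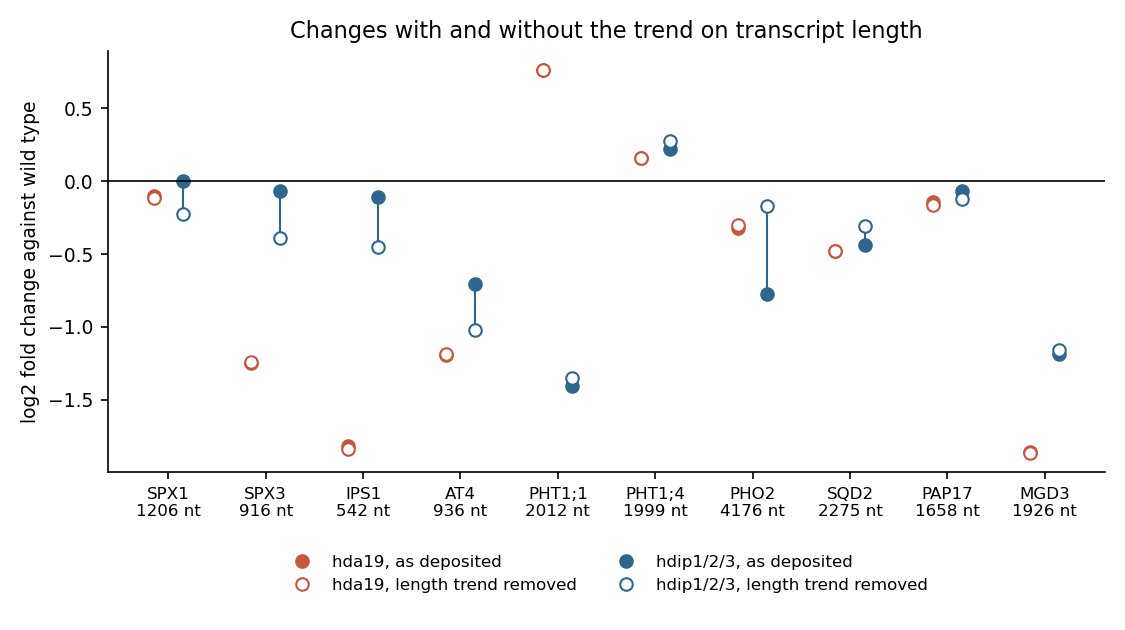
Log2 fold changes against the wild type, as fitted to the deposited values (filled) and after removal of the trend on transcript length (open), with the exon length of each gene in nt under its name. The hda19 values stay in place, while in hdip1/2/3 PHO2 moves from -0.78 to -0.17 and AT4 from -0.71 to -1.02.

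The miR399 primary transcripts could not be followed. Of the 6 MIR399 genes, MIR399C had 2 reads in hda19 replicate 1 and MIR399B had 1 read in hdip1/2/3 replicate 1, and the other 4 were at 0 in every library. Mature microRNAs are not captured by such libraries, so the levels of PHO2 and its mimics are given without that of the microRNA. PHR1 (AT4G28610), the regulator upstream, stood at 2369 and 1999 adjusted counts in wild-type libraries, 2059 and 2121 in those of hda19, and 1785 and 1639 in those of hdip1/2/3. Its log2 fold changes were -0.06 (SE 0.13) and -0.35 (SE 0.13, unadjusted P = 0.0284, adjusted P = 0.119), inside the fold limit.

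The high-affinity transporters PHT1;1 and PHT1;4 carry phosphate into the cell. PHT1;4 (AT2G38940) stood at 155.9 and 192.1 adjusted counts in wild-type libraries, 150.3 and 248.6 in those of hda19, and 247.3 and 165.4 in those of hdip1/2/3. The genotypes overlapped, and the log2 fold changes were 0.16 (SE 0.32) and 0.22 (SE 0.32). PHT1;1 (AT5G43350) was the lowest of the 10 genes, with 5 and 11 reads in wild-type libraries, 8 and 24 in those of hda19, and 2 in each hdip1/2/3 library. Its adjusted counts were 5.037 and 11.11, then 8.295 and 21.63, then 2.181 and 2.268, so both hdip1/2/3 libraries lay under the rest. The log2 fold changes against the wild type were 0.76 (SE 0.66, unadjusted P = 0.283) in hda19 and -1.41 (SE 0.66, unadjusted P = 0.0669) in hdip1/2/3. Between the mutants the difference was 2.17 (SE 0.66, unadjusted P = 0.0117, adjusted P = 0.188), past the call rule. It did not pass without hda19 replicate 2 (1.53, unadjusted P = 0.0622) or without either hdip1/2/3 library (P values of 0.069 and 0.066). The coding sequence of PHT1;1 is 97.7% identical to that of its neighbour PHT1;2 and 90.3% to that of PHT1;3, and since uniquely mapped reads were counted, reads from the shared stretches may be missing. PHT1;2 had at most 3 reads in a library and PHT1;3 was at 0.

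SQD2 and MGD3 build the lipids that stand in for phospholipids. SQD2 (AT5G01220, chromosome 5) makes the plastid sulfolipid sulfoquinovosyldiacylglycerol. It stood at 3849 and 3790 adjusted counts in wild-type libraries, 2637 and 2854 in those of hda19, and 2763 and 2887 in those of hdip1/2/3. All 4 mutant libraries lay well below the wild type, and replicates were close. The level was 71.8% of the wild type in hda19 (log2 fold change -0.48, SE 0.11, unadjusted P = 0.00266, adjusted P = 0.068) and 74.0% in hdip1/2/3 (-0.44, SE 0.11, unadjusted P = 0.00443, adjusted P = 0.0542). Both unadjusted P values stayed at or below 0.0166 with any 1 library left out, but neither difference reached the fold limit. The mutants differed from each other by -0.04 (95% interval -0.30 to 0.21). With the length trend removed, SQD2 (2275 nt of exon) was at -0.48 in hda19 and at -0.31 in hdip1/2/3 (unadjusted P values of 0.000741 and 0.0121 by limma-trend). The mutants then differed by -0.17 (unadjusted P = 0.121).

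MGD3 (AT2G11810, chromosome 2) encodes a monogalactosyldiacylglycerol synthase that feeds galactolipid synthesis under low phosphate. It stood at 78.43 and 33.43 adjusted counts in wild-type libraries, 20.50 and 8.657 in those of hda19, and 24.90 and 19.33 in those of hdip1/2/3. Every mutant library was below both wild-type libraries, which themselves lay 1.21 log2 units apart. MGD3 fell in hda19 to 27.6% of the wild type (log2 fold change -1.86, SE 0.58, unadjusted P = 0.0129, adjusted P = 0.145). The call was lost without wild type replicate 1 (-1.26, unadjusted P = 0.135 by limma-trend) and without hda19 replicate 2 (-1.28, unadjusted P = 0.133). It was also lost without either hdip1/2/3 library, with the log2 fold change still at -1.86. Leaving out such a library alters only the estimated spread in this comparison. In hdip1/2/3 the level was 43.9% (-1.19, SE 0.58, unadjusted P = 0.075), not past the P limit.

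A list of lipid genes of the pathway held 8 more that were tested. By the rule of a log2 fold change past 1 at an unadjusted P value under 0.05, 0 of the 8 rose and 0 fell in either mutant. Of all tested genes, 4.65% rose and 2.09% fell in hda19, and 4.92% rose and 4.07% fell in hdip1/2/3. A count of 0 among 8 genes is near those shares. The fitted level was lower in hda19 for 5 of the 8 (median log2 fold change -0.23), against 49.8% of all tested genes. In hdip1/2/3 it was lower for 8 (median -0.37), against 49.6% of tested genes of any length. SQD1 alone passed the adjusted P value, as did 2.84% of all tested genes in hda19 and 7.17% in hdip1/2/3. The 8 genes have 1525 to 4663 nt of exon. In hdip1/2/3 the median of all tested genes was 0.04 at 1445 to 1872 nt, -0.10 at 1873 to 2471 nt and -0.41 above that. With the length trend removed, SQD1, MGD1 and MGD2 in hdip1/2/3 were at -0.447, -0.305 and -0.318. The part of length in the count of 8 was not tested. SQD1, which supplies the sulfolipid head group for SQD2, stood at 6897 and 6409 adjusted counts in wild-type libraries, 4583 and 4435 in those of hda19, and 4671 and 4897 in those of hdip1/2/3. It was lower in both mutants, at 67.8% (log2 fold change -0.56, SE 0.11, adjusted P = 0.0422) and 71.9% (-0.48, SE 0.11, adjusted P = 0.0457) of the wild type by limma-trend. MGD1, the main galactolipid synthase of chloroplasts, stood at 4776 and 4398 adjusted counts in wild-type libraries, 3464 and 3314 in those of hda19, and 3529 and 3437 in those of hdip1/2/3 (-0.44, adjusted P = 0.0874, and -0.40, adjusted P = 0.0652). MGD2, the closest relative of MGD3 in role, gave log2 fold changes of -0.23 (SE 0.18) and -0.35 (SE 0.18). DGD1, which makes digalactosyldiacylglycerol and has 3104 nt of exon, gave -0.22 (unadjusted P = 0.214) and -0.62 (SE 0.165, unadjusted P = 0.00614, adjusted P = 0.0613). NPC4 stood at 61.36 and 47.55 adjusted counts in wild-type libraries, 39.05 and 31.90 in those of hda19, and 30.47 and 34.94 in those of hdip1/2/3. Its log2 fold changes were -0.60 (SE 0.36, unadjusted P = 0.133 by limma-trend) and -0.71 (SE 0.36, unadjusted P = 0.0837). In hda19, 3 genes were fitted above the wild type, namely DGD2 (0.12), PLDZ1 (0.16) and GDPD1 (0.03). SQD1, SQD2 and MGD1 were lower at an unadjusted P value under 0.05 in both mutants, which does not hold for the list as a whole, and both comparisons use the same wild-type libraries. Green leaf markers differed as well. Of the 6, 0 were above and 3 below the wild type in both hda19 libraries, and 3 were above and 2 below in hdip1/2/3. Both libraries lay below the wild type for 24.1% of all tested genes in hda19 and 31.3% in hdip1/2/3. The 2 below in hdip1/2/3 are thus near the share, and the shares above are not given here. GLDP1 of photorespiration, below in both mutants, stood at 242100 and 182400 adjusted counts in wild-type libraries, 118800 and 136100 in those of hda19, and 117600 and 109300 in those of hdip1/2/3. Their part in the result was not tested.

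**Figure D3:**
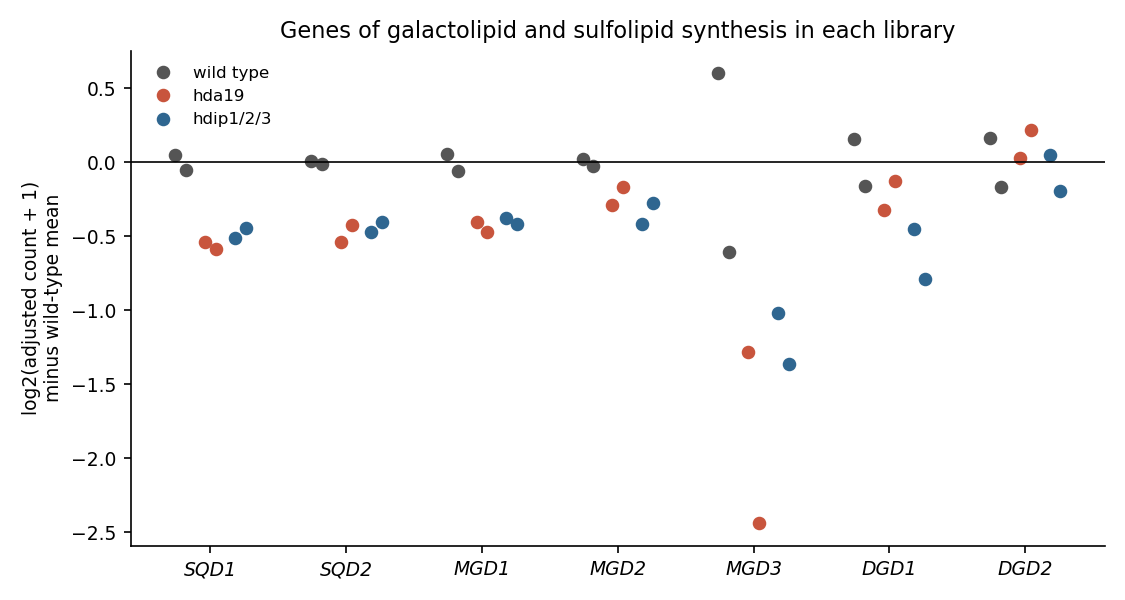
Sulfolipid and galactolipid genes in each library, as the difference in log2(adjusted count + 1) from the wild-type mean of each gene; every point is 1 library. SQD1, SQD2 and MGD1 lie about 0.4 to 0.6 below the wild-type mean in all 4 mutant libraries, and MGD3 spreads widely.

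PAP17 (AT3G17790) encodes a purple acid phosphatase that frees phosphate from organic compounds. It stood at 1191 and 1543 adjusted counts in wild-type libraries, 1205 and 1249 in those of hda19, and 1309 and 1278 in those of hdip1/2/3. The mutant libraries lay between those of the wild type, with log2 fold changes of -0.14 (SE 0.15) and -0.07 (SE 0.15). PAP17 overlaps a gene on the opposite strand, AT3G17800, so reads from the shared stretch may be assigned to either where strand was not used.

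A gene was called where its log2 fold change exceeded 1 in either direction at an unadjusted P value below 0.05. By this rule, 2 of the 10 genes fell in hda19 (AT4 and MGD3), where 2.09% of all tested genes did, and 0 rose, where 4.65% did. Without the fold limit, 3 genes were lower in hda19 (AT4, SQD2 and MGD3; 7.67% of all genes), and 1 passed the adjusted P value (AT4; 2.84%). Both hda19 libraries lay below both wild-type libraries for 4 genes (SPX3, AT4, SQD2 and MGD3; 24.1% of all genes). The median log2 fold change of the 10 genes was -0.40, against 0.00 over all tested genes.

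In hdip1/2/3, 0 of the 10 genes fell by the same rule (4.07% of all genes) and 0 rose (4.92%). At an unadjusted P value under 0.05 with no fold limit, limma-trend gave 3 lower genes (AT4, PHO2 and SQD2; 15.5% of all genes). None passed the adjusted P value (7.17% of all genes), the lowest being 0.0542. The hdip1/2/3 libraries were both below the wild type for 5 genes (AT4, PHT1;1, PHO2, SQD2 and MGD3), as for 31.3% of all genes. The median was -0.27, against 0.00 over all genes. For AT4, SQD2 and MGD3 all 4 mutant libraries were below both of the wild type, as for 14.8% of all genes.

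**Figure D4:**
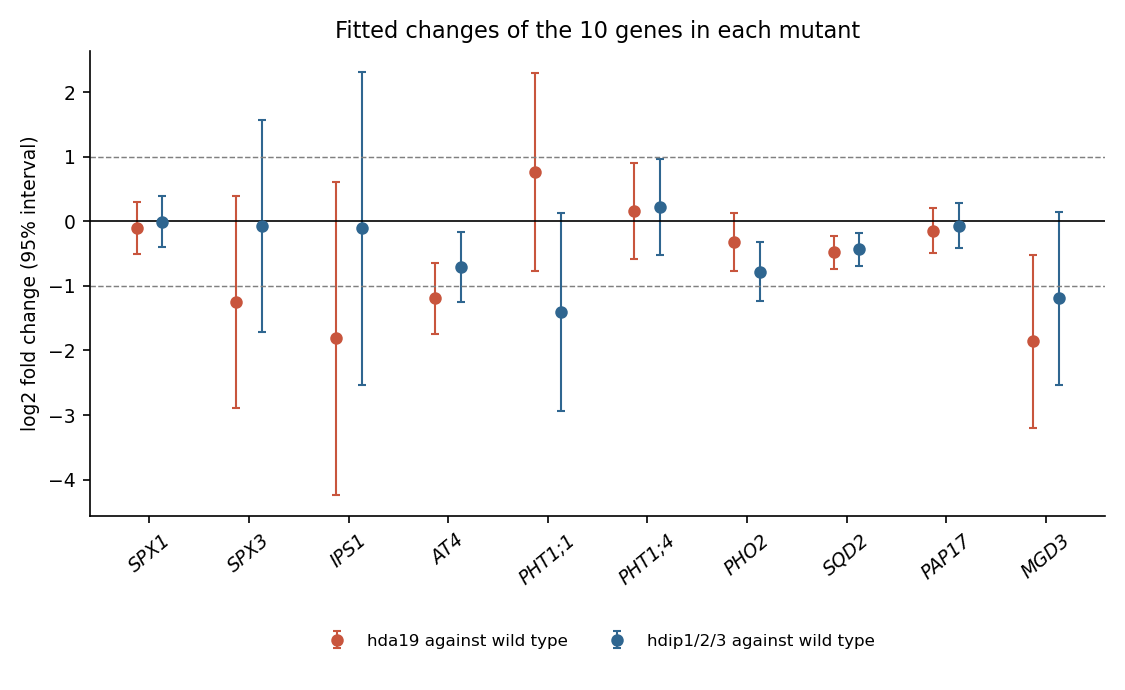
Fitted log2 fold changes of the 10 genes in hda19 and in hdip1/2/3 against the wild type, with 95% intervals from limma-trend; dashed lines mark the fold limit of 1 in each direction. The intervals of AT4, SQD2 and MGD3 in hda19 and of AT4, PHO2 and SQD2 in hdip1/2/3 exclude 0, and those of SPX3, IPS1 and PHT1;1 are wide.

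Compared directly, 1 gene was higher in hda19 than in hdip1/2/3 (PHT1;1; 2.49% of all genes) and 0 were lower (1.14%). None passed the adjusted P value of limma-trend, and of all 23685 tested genes 0% passed it. Still, 2 of the 10 (PHT1;1 and PHO2) and 5187 of all genes had an unadjusted P value under 0.05. Both hda19 libraries were above both hdip1/2/3 libraries for the same 2 genes, against 29.8% of all genes. They were below for SPX3, IPS1, AT4 and PAP17. The share over all genes in that direction is not given here, so these names cannot be set against a background. The fitted level was lower in hda19 for 8 of the 10, against 48.0% of all tested genes. SPX3, IPS1 and AT4 are among the transcripts of 29 to 1000 nt, whose median log2 difference between the mutants was -0.32.

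Beyond the 10 genes, 5 lists of the pathway held 53 loci, of which 48 matched their names in the annotation and 40 could be tested. Of these 40, 3 rose and 0 fell in hda19, where 4.65% of all tested genes rose and 2.09% fell. The triple mutant had 2 that rose and 1 that fell, against 4.92% and 4.07% of all genes, and between the mutants 0 passed in either direction (2.49% and 1.14%). In both mutants these small counts are near those shares. All genes that rose were transcription factors among the 15 regulators. WRKY75, which acts in the response to low phosphate, stood at 8.058 and 17.17 adjusted counts in wild-type libraries, 72.98 and 60.32 in those of hda19, and 55.99 and 17.56 in those of hdip1/2/3, and rose in hda19 (log2 fold change 2.39, SE 0.61, adjusted P = 0.0912). WRKY45, an activator of PHT1;1, rose in hda19 by a log2 fold change of 1.54 (SE 0.38, adjusted P = 0.0816) from 37.22 and 34.39 to 93.64 and 119.4. MYB62 rose in both mutants, from 8.044 and 5.065 to 16.54 and 35.92 in hda19 (1.78, SE 0.53) and to 24.94 and 21.54 in hdip1/2/3 (1.71, SE 0.53). The zinc finger gene ZAT6 rose in hdip1/2/3, from 50.32 and 94.01 to 211.4 and 138.3 (1.30, SE 0.37, adjusted P = 0.0699). Each of these 5 calls was lost when certain single libraries were left out, mostly with the fold still past the limit. WRKY75 was then at 1.89 to 2.53 (unadjusted P values of 0.0645 to 0.1, without wild type replicate 1 or either hda19 library) and WRKY45 at 1.48 and 1.36 (0.0533 and 0.0561, without wild type or hda19 replicate 2). MYB62 in hda19 was at 1.49 (unadjusted P = 0.0777 by limma-trend, without wild type replicate 2), and in hdip1/2/3 it was at 1.42 to 1.81 (0.0578 to 0.0873, without wild type replicate 2 or either hdip1/2/3 library). ZAT6 was at 1.30 without either hda19 library (0.0534 and 0.0531), but under the fold limit without wild type replicate 1 (0.86, 0.0865) or hdip1/2/3 replicate 1 (0.996, 0.115). Between the mutants WRKY75 differed by 1.05 (unadjusted P = 0.125), and it passed with the length trend removed (1.41, unadjusted P = 0.0365) and without hdip1/2/3 replicate 1 (1.86, unadjusted P = 0.0377).

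Among the 7 genes of phosphate recycling, PS2, a phosphatase induced by phosphate starvation, stood at 111.7 and 84.98 adjusted counts in wild-type libraries, 45.20 and 31.81 in those of hda19, and 26.74 and 2.685 in those of hdip1/2/3. It fell in hdip1/2/3 (log2 fold change -3.28, SE 0.84, adjusted P = 0.056), and 1 library there held 2 reads. In hda19 its log2 fold change was -1.34 (SE 0.84, unadjusted P = 0.151), although all mutant libraries were below the wild type. At about the same fold it passed in a fit of these 2 genotypes alone (unadjusted P = 0.0184), without either hdip1/2/3 library (0.0205 and 0.0186) and by limma-voom on recovered reads (-1.36, unadjusted P = 0.027). The call in hdip1/2/3 was lost without wild type replicate 1 (-3.09, unadjusted P = 0.116) or 2 (-3.48, unadjusted P = 0.0893) and without either hda19 library (-3.28, unadjusted P values of 0.0555 and 0.0554), so its fold changed little. The fold itself moved with the hdip1/2/3 libraries, from -4.74 to -1.83 depending on which was left out. Set against each other, the mutants differed in PS2 by 1.95 (SE 0.84, unadjusted P = 0.0504 by limma-trend), just short of the rule. That difference passed at a mean of at least 10 (unadjusted P = 0.0378), with the replicate block (unadjusted P = 0.017), by limma-voom (2.09, unadjusted P = 0.0357), with the length trend removed (2.11, unadjusted P = 0.0216) and without hdip1/2/3 replicate 1 (3.40, unadjusted P = 0.00206). None of the 8 tested transport genes passed in any comparison. The shares of all tested genes that rose and fell were 4.65% and 2.09% in hda19 and 4.92% and 4.07% in hdip1/2/3. Between the mutants they were 2.49% and 1.14%, so a count of 0 among 8 genes is near all these shares.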

How the data were processed

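RNA-seq signal values per gene were deposited for 6 libraries, 2 per genotype. The authors trimmed the reads, aligned them to TAIR10 with HISAT2, counted unique reads with featureCounts and used edgeR. The form of the values, counts adjusted by quantiles to a common library size, was inferred here, and inverting it returned values within 0.01 of whole reads for 195288 of 195288 values. The paper describes paired NovaSeq reads and the labels single-end DNBSEQ reads. Of the recovered values from 1 to 20, 59.2% were even.

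A count test was planned for raw counts and limma-trend for adjusted values, so limma 3.58.1 in R 4.3.3 was fitted to log2(value + 1), which understates changes of low genes. All 6 libraries entered 1 fit with genotype as the only term, over genes whose mean reached 1 in any genotype. Adjusted P values are those of Benjamini and Hochberg over all tested genes. The study describes 2 independent biological replicates. With 2 libraries per genotype, an exact permutation test of 1 gene cannot go below 0.333, so P values rest on the spread across genes.

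The 10 genes and the pathway and marker lists were chosen with earlier results of these data known. Pathway genes were named where called or where they are a direct partner or close relative of 1 of the 10. The tested genes of the lipid list were all named. Exon lengths, positions and sequences came from RefSeq (TAIR10.1). The recovery of reads and the main fit of hda19 against the wild type were tested on simulated data. Large changes were placed there in well-covered genes only. Smaller changes, changes in low genes and the other settings were not tested in this way. Alternatives were another scaling, pseudocount, filter or fit, a replicate block, limma-voom on recovered reads, removal of the length trend (lowess, span 0.3) and the omission of each library. limma-voom on recovered reads divided by 2, and the length trend removed with a replicate block, were chosen after seeing the data.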

Additional observations from a re-analysis of the deposited data

Results flagged for a closer look

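PHT1;1 differed between the mutants, with a log2 difference of 2.17 (SE 0.66) of hda19 over hdip1/2/3 by limma-trend (unadjusted P = 0.0117, adjusted P = 0.188). It stood out because the direct comparison tests the difference of the 2 mutants' effects. It rests on 8 and 24 reads in hda19 against 2 and 2 in hdip1/2/3.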

How the results depend on the processing

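The number of the 10 genes called in hda19 against the wild type was 2, and 1 with no filter, in the pairwise fit and by the adjusted P value. In hdip1/2/3 it was 0, and 1 in the pairwise fit (PHT1;1), 1 with the replicate block (MGD3), 1 with the length trend removed (AT4) and 2 with both (MGD3 and AT4). Between the mutants it was 1, and 0 by the adjusted P value. With 1 library left out, these numbers ranged from 1 to 2, from 0 to 1 and from 0 to 1. The replicate block left 2 in hda19 and 1 between the mutants. Same-numbered libraries deviated with correlations of -0.08, 0.13 and -0.08, so the numbers were not taken to pair the samples. Over all genes, adjusted calls in hda19 numbered 673, against 0 in the pairwise fit or with 1 library left out, 91 with no filter and 1951 with the length trend removed (2389 also with the block). The numbers in hdip1/2/3 were 1699, against 0, 67, 2661 and 3543, and 2884 at a mean of at least 10. Between the mutants they numbered 0, against 40 with no filter and 121 with the length trend removed and the block.

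Removing the length trend turned PHO2 between the mutants to -0.13 and SPX1 to 0.11, also with the replicate block. With 1 library left out, some log2 values changed sign. In hda19, SPX1 ranged from -0.22 to 0.01, PHT1;4 from -0.20 to 0.52, PAP17 from -0.33 to 0.043 and PHR1 from -0.18 to 0.064. In hdip1/2/3, SPX1 ranged from -0.10 to 0.10, SPX3 from -0.26 to 0.12, IPS1 from -1.43 to 1.21, PHT1;4 from -0.065 to 0.51 and PAP17 from -0.26 to 0.12. Between the mutants, SPX1 ranged from -0.21 to 0.012, PHT1;4 from -0.43 to 0.30, SQD2 from -0.099 to 0.015 and MYB62 from -0.46 to 0.61. The cause was not tested. AT4, SQD2, MGD3 and PHO2 stayed below the wild type in both mutants in every fit. PHT1;1 likewise stayed above it in hda19 and below it in hdip1/2/3. The smallest of these log2 values in hda19 were -0.082 for PHO2 and 0.12 for PHT1;1, each with 1 library left out. The number of libraries limits all values, and reads limit SPX3, IPS1 and PHT1;1.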
